A study of Homo sapiens with 8 samples.

Results

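The results concern the m6A peaks of 143B, an established human osteosarcoma cell line, in cells infected with a lentiviral short hairpin RNA against METTL14 (shMETTL14) and in cells infected with a control hairpin (NC). Both groups were grown alike, and each has 1 deposited peak list. The lists held 35195 peaks with shMETTL14 and 33082 with NC, together 68277 of the 130622 peaks in the 4 lists of the series, and all rows were used. The remaining 62345 peaks come from U2OS, a second osteosarcoma line with the same hairpins, and serve here as an independent measure. The series has 8 libraries, input and pull-down for every line and hairpin, and asks which m6A peaks differ between shMETTL14 and NC. In MeRIP-seq, fragmented RNA is pulled down with an antibody against N6-methyladenosine (m6A), and a peak is a stretch of a transcript with more pulled-down than input reads.

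METTL14 and METTL3 form the core of the complex that writes m6A on messenger RNA, with METTL3 carrying the catalytic activity and METTL14 holding the RNA. The mark lies most densely around stop codons and in long internal exons. Reader proteins of the YTH and IGF2BP families bind it, and it is known for its part in RNA decay, translation and splicing, while FTO and ALKBH5 can remove it.

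A peak was called gained when its spliced blocks overlapped no NC peak on the same strand by at least 1 bp, lost when an NC peak overlapped no shMETTL14 peak, and kept otherwise. Gained and lost are statements about the lists, and neither is a measured change in methylation. With 1 list per group, no difference between the hairpins has a replicate check, and no test between them was made. Intervals (Clopper-Pearson, 95%) cover counting error alone and take peaks or sites to be independent. The fold enrichment (pull-down over input, a linear ratio) and the p-value of each peak are the authors' and rank peaks within a list. The lists carry no read counts, so the depth is unknown.

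The same place appears again for every isoform, so overlapping peaks of a strand within a list were joined to sites. A site takes its lead gene, transcript part, fold enrichment and p-value from its peak with the lowest p-value. Counts of sites per gene or gene list assign a site to every gene with a peak in it. Joining gave 12886 sites on 6916 genes with shMETTL14 and 12258 sites on 6621 genes with NC. The sites had a median of 240 nt of spliced sequence with shMETTL14 and 210 nt with NC. Of 12 osteoblast lineage markers, 6 carried peaks with shMETTL14, among them RUNX2, COL1A1, SPARC, BMP4 and VDR, and 4 with NC, among them RUNX2, SPARC and VDR. None of 7 blood and immune markers was listed with either hairpin, and of 5 epithelial markers the keratins KRT8 and KRT18 were listed with both. Of the neural markers SOX2, and of the muscle and cartilage markers the joint lubricant PRG4, were listed with shMETTL14 only.

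The knockdown did not come with fewer m6A peaks in 143B. The ratio of peak numbers, shMETTL14 over NC, was 1.06, and 27.3% of the shMETTL14 peaks were gained while 20.7% of the NC peaks were lost. In sites, 4120 of 12886 were gained (32.0%, interval 31.2 to 32.8) and 3017 of 12258 were lost (24.6%, interval 23.9 to 25.4). In genes, 1075 of 6916 carried peaks with shMETTL14 only (15.5%), and 780 of 6621 carried peaks with NC only (11.8%). These 6 percentages are the background against which the shares of single regions and gene groups are read. In U2OS the same shares of sites were 24.9% gained and 31.2% lost, the opposite order, and this difference between the lines was not tested.

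The surplus with shMETTL14 lay among the peaks with low p-values. At p-values up to 0.001 the shMETTL14 list held 31963 peaks and the NC list 29304, a ratio of 1.09. At 1e-10 or below, 12003 peaks with shMETTL14 stood against 8828 with NC, a ratio of 1.36, and at 1e-20 or below the ratio was 1.46. In U2OS the ratio stayed between 0.933 and 0.954 at these cutoffs. The median p-value of a 143B peak was 5.75e-07 with shMETTL14 and 7.08e-06 with NC, while the median fold enrichment was 3.59 with shMETTL14 and 3.79 with NC. These cutoffs set the same p-value for lists of unknown read depth, and the part of depth in the ratios was not tested.

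Gain and loss were most frequent in the UTRs and least frequent at the stop codon. Of sites across the stop codon, 264 of 2064 were gained (12.8%, interval 11.4 to 14.3) and 190 of 1930 were lost (9.84%, interval 8.55 to 11.3). Of sites within the 5' UTR, 213 of 472 were gained (45.1%, interval 40.6 to 49.7) and 191 of 437 were lost (43.7%, interval 39.0 to 48.5). The 3' UTR held the largest number of such sites, with 1857 of 4362 gained (42.6%) and 1262 of 4021 lost (31.4%). Sites across the start codon had the larger share lost, with 95 of 549 gained (17.3%, interval 14.2 to 20.7) and 120 of 574 lost (20.9%, interval 17.6 to 24.5). At the start codon and in the 5' UTR the intervals of gain and loss overlap, so an order between them cannot be read there.

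Coding sites were split by whether they lay in 1 block or spanned exon junctions. Of those in 1 block, 1084 of 3039 were gained (35.7%) and 951 of 3259 were lost (29.2%). Of those in several blocks, 607 of 2360 were gained (25.7%) and 302 of 2002 were lost (15.1%). Sites over exon junctions thus had the widest relative gap between gain and loss among the 6 parts. U2OS had the same extremes, with 10.1% of its stop codon sites gained and 12.8% lost, and 39.5% of its 5' UTR sites gained and 46.6% lost.

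**Figure D1:**
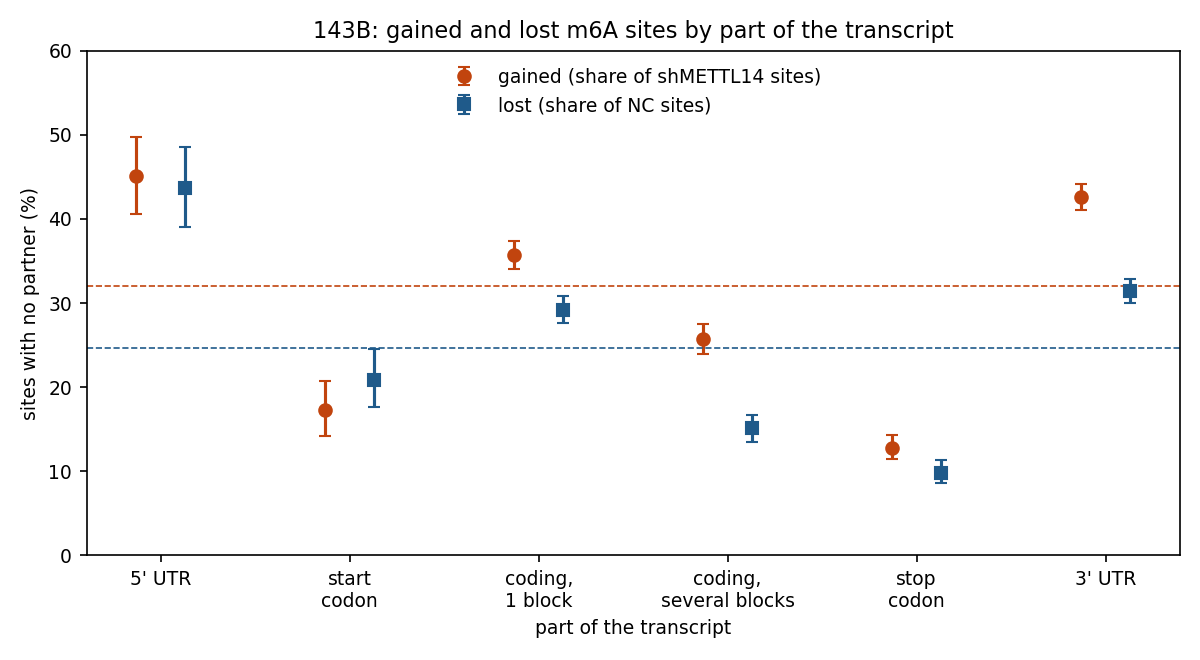
Share of 143B m6A sites with no partner in the other list (y axis, percent) by part of the transcript (x axis), for gained sites among all shMETTL14 sites (circles) and lost sites among all NC sites (squares). Bars are 95% Clopper-Pearson intervals and dashed lines the shares over all sites, 32.0% gained and 24.6% lost; stop codon sites lie lowest and 5' UTR sites highest in both.

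The transcript parts also differed in how strong their sites were. Stop codon sites had a median p-value of 1e-13 with shMETTL14 and 1e-10 with NC, and a median width of 391 nt with shMETTL14 and 362 nt with NC. In the 3' UTR the median p-value was 2.51e-05 with shMETTL14 and 7.41e-05 with NC, at widths of 181 and 180 nt in the same order. Each list was cut into 5 equal bins by p-value. In the bin with the highest p-values, the regions came close together, at 54.9% to 70.9% gained and 52.2% to 64.2% lost. In the middle bin the stop codon, with 68 of 313 sites gained (21.7%, interval 17.3 to 26.7), lay beside 25.6% of coding sites in 1 block (interval 22.2 to 29.2), 345 of 958 in the 3' UTR (36%) and 176 of 480 over exon junctions (36.7%). The stop codon was not the lowest for gain in the other bins with more than a few gained sites. In the second bin 6.27% of its sites and 4.48% of start codon sites were gained, in the fourth 43.9% and 41.2%, and in the last 66.0% and 54.9%. For loss in the middle bin, 50 of 316 stop codon sites (15.8%) and 55 of 365 sites over exon junctions (15.1%) stood beside 29.5% of the start codon sites.

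The rank of a site by p-value separated kept sites from the rest more sharply than its position. Each list was also cut into 10 equal bins. In the bin with the lowest p-values, 0.0776% of shMETTL14 sites were gained and 0.0816% of NC sites were lost. In bin 5 the shares were 26.9% gained and 15.8% lost, and in bin 10 71.2% gained and 57.7% lost. Gained sites had a median p-value of 2.40e-04 and a width of 148 nt, against 1.86e-09 and 316 nt for kept sites of the shMETTL14 list. Lost sites had a median p-value of 4.37e-04 and a width of 120 nt, against 8.71e-07 and 269 nt for kept sites of the NC list. Sites missing from the other list were therefore mostly weak and narrow ones in the list that held them. Among peaks with a p-value of 1e-05 or below, set against the whole other list, 9.36% with shMETTL14 were gained and 4.31% with NC were lost. An overlap of 50% of each peak raised the shares to 43.1% gained and 39.5% lost.

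**Figure D2:**
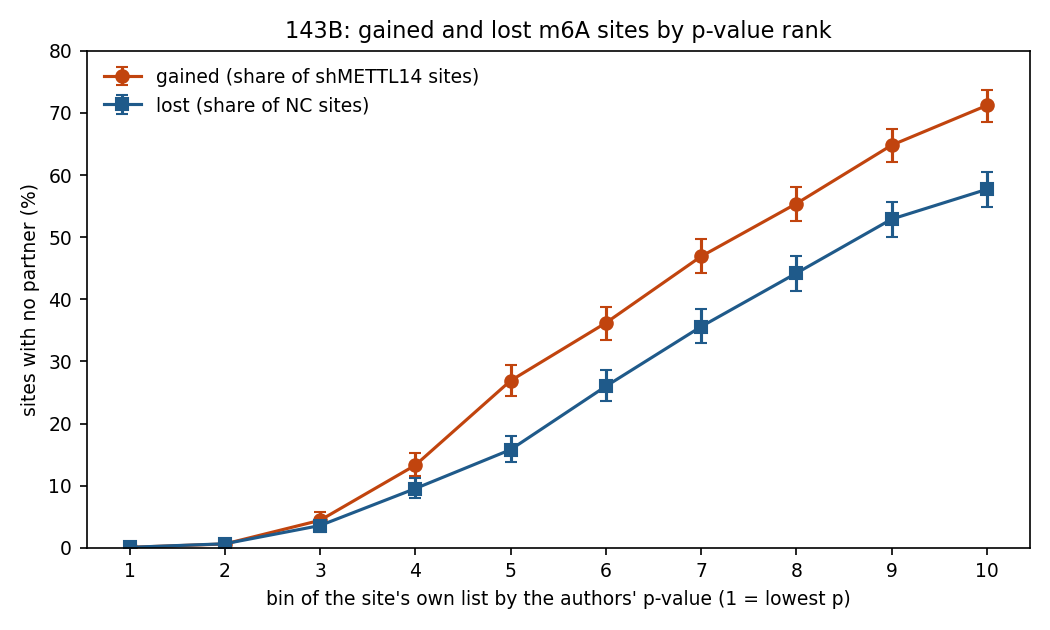
Share of 143B sites with no partner in the other list (y axis, percent) by bin of the site's own list, cut into 10 by the authors' p-value (x axis, 1 is the lowest p). Circles are gained sites of the shMETTL14 list and squares lost sites of the NC list, with 95% Clopper-Pearson intervals; both shares climb with every bin, to 71.2% gained and 57.7% lost.

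Fold enrichment did not order the sites in this way. Sites with a fold enrichment of 5 to 10 were gained in 22.7% and lost in 23.6% of cases. Those of 10 to 20 were gained in 58.4% of cases (746 of 1278) and lost in 39.3% (421 of 1072), although their enrichment was higher. Their median p-value was 6.03e-05 with shMETTL14 and 6.92e-05 with NC, weaker than in the band of 5 to 10, where it was 1.51e-10 with shMETTL14 and 2.14e-06 with NC. At 20 or above the shares were 33.9% gained and 22.3% lost, near the background, with a median p-value of 1.07e-08 with shMETTL14 and 4.32e-07 with NC.

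Kept sites were a little wider with shMETTL14. Of 8766 kept sites in the shMETTL14 list and 9241 in the NC list, 7500 formed pairs in which each overlapped only the other. In these pairs the median width was 300 nt with shMETTL14 and 270 nt with NC. The shMETTL14 site was the wider in 4330 pairs (57.7%), the NC site in 2643, and 527 pairs were equal. The transcript part was the same in 6427 pairs (85.7%). In addition, 722 shMETTL14 sites each covered several NC sites, while 303 NC sites each covered several shMETTL14 sites, so some differences in site number come from joined neighbours.

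The U2OS lists gave a measure of the 143B sites that did not enter the calls. Of the gained sites, 1823 of 4120 overlapped a peak in either U2OS list (44.2%, interval 42.7 to 45.8), against 82.8% of kept sites in the shMETTL14 list. Of the lost sites, 1089 of 3017 did so (36.1%, interval 34.4 to 37.8), against 82.2% of kept sites in the NC list. The gap stood within bins of p-value too, where the width of the sites was not held equal. In the last of the 5 bins by p-value, 35.2% of gained sites against 53% of kept shMETTL14 sites, and 29.7% of lost sites against 60.1% of kept NC sites, had a U2OS peak. Gained sites were found in U2OS more often than lost ones in each of the 3 weaker bins of their own lists, for example 56.0% (interval 52.5 to 59.5) against 42.9% (interval 38.6 to 47.3) in the middle bin. The bins cover different p-values, the middle one running between 3.47e-08 and 2.24e-05 with shMETTL14 and between 1.12e-06 and 6.92e-05 with NC, so gained and lost sites were not compared at equal p-values.

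**Figure D3:**
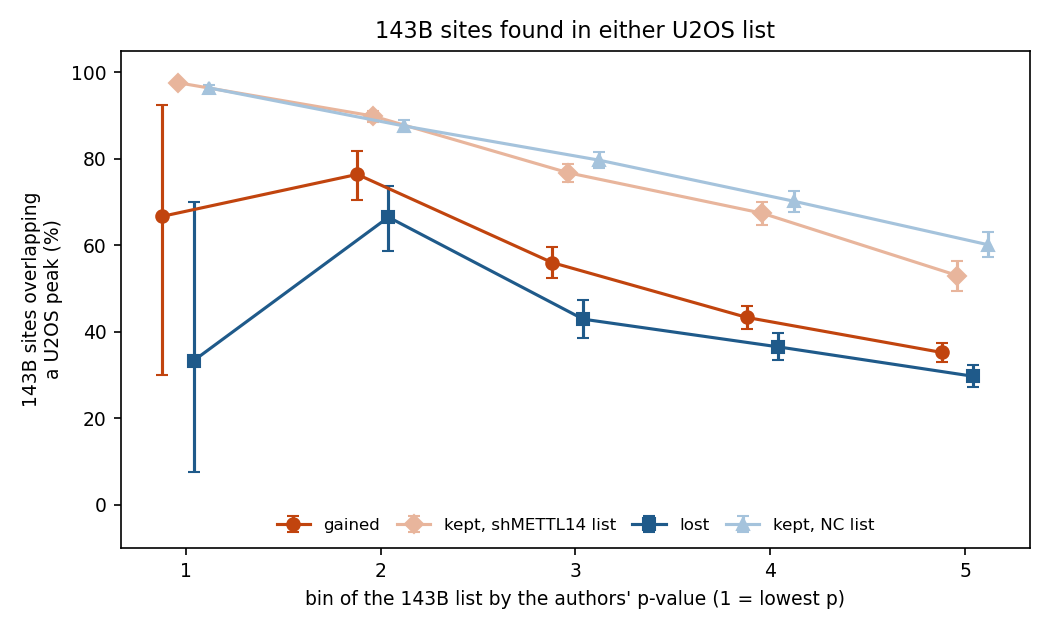
Share of 143B sites that overlap a peak in either U2OS list (y axis, percent) by bin of the 143B list, cut into 5 by the authors' p-value (x axis, 1 is the lowest p). Circles are gained sites, diamonds kept sites of the shMETTL14 list, squares lost sites and triangles kept sites of the NC list, with 95% Clopper-Pearson intervals; in bin 1 only 9 gained and 9 lost sites exist, and kept sites lie above gained and lost ones in every bin.

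Where a gained or lost 143B site had a U2OS partner under the same hairpin, the class was shared in a minority of cases. It was a larger share than among kept sites. Of 1273 gained 143B sites with a U2OS shMETTL14 partner, 450 had a partner that was gained in U2OS (35.3%), against 697 of 6444 kept sites (10.8%). Of 854 lost 143B sites with a U2OS NC partner, 399 had a partner that was lost in U2OS (46.7%), against 850 of 6876 kept sites (12.4%). Over all U2OS sites, with or without a 143B partner, 24.9% were gained and 31.2% lost. The p-value ranks of these sites were not held equal in this comparison.

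Most genes kept at least 1 site. Of 5841 genes with peaks under both hairpins, 5512 had a kept site, and 3053 had all their sites kept on both sides. Gained sites without lost ones stood on 1154 of these genes, lost sites without gained ones on 757, and both kinds on 877. These 877 include the 329 genes with no kept site, whose peaks in the lists did not overlap. Of the gained sites, 2370 lay on genes with a kept site, as did 1711 of the lost sites. Genes listed under only 1 hairpin mostly had a single site, 874 of 1075 with shMETTL14 only (81.3%) and 661 of 780 with NC only (84.7%). A single site was frequent over all genes too, on 3621 of 6916 with shMETTL14 and 3554 of 6621 with NC. A site in U2OS stood on 545 of the genes with shMETTL14 sites only (50.7%) and on 371 of those with NC sites only (47.6%).

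On the m6A machinery itself, METTL14 and METTL3 had no kept site, and the writer list as a whole lay near the background. METTL14 had 2 sites with shMETTL14, both gained, in the coding sequence of chromosome 4 at 119609159 to 119613138 (hg19, fold enrichment 5.98, p-value 2.88e-06) and at 119631325 to 119631415 (2.88, p-value 0.00219). With NC, METTL14 had 1 site, lost, in the 3' UTR at 119632163 to 119632342 (2.45, p-value 1.82e-04). The places with and without the knockdown hairpin thus did not overlap, and all 3 places had a partner in U2OS. Peak lists hold no RNA levels, which leaves the knockdown unchecked. METTL3 had 1 coding site with shMETTL14 (chromosome 14, 21970031 to 21971479, fold enrichment 2.56) and none with NC.

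Other writer subunits kept their strong sites. WTAP, which holds the complex in nuclear speckles, had 3 sites with shMETTL14 and 3 with NC, all kept, in the 5' UTR and at the 3' end of the coding sequence. KIAA1429, also called virilizer, had 3 sites with shMETTL14, of which 1 was gained, and 4 with NC, of which 1 was lost. RBM15, an RNA-binding adaptor of the complex, had 1 of 4 shMETTL14 sites gained and 2 of 5 NC sites lost. Its coding site at 110883259 on chromosome 1 was kept at a fold enrichment of 6.75 with shMETTL14 and 7.17 with NC, while the 2 lost RBM15 sites had p-values of 0.00447 and 0.00309. ZC3H13 and CBLL1 had no gained or lost site. The writer list had 10 genes with sites, and it counts METTL16, ZCCHC4 and METTL5 beside the subunits of the METTL3 and METTL14 complex. Over these 10 genes, 7 of 21 shMETTL14 sites were gained (33.3%) and 5 of 21 NC sites were lost (23.8%), near the background shares.

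Among readers, 6 of 18 shMETTL14 sites were gained (33.3%) and 1 of 15 NC sites was lost (6.67%, interval 0.169 to 31.9, which includes the background). YTHDF2, which promotes decay of methylated RNA, had a kept site across its stop codon with p-values of 1.00e-99 with shMETTL14 and 2.00e-38 with NC, and 1 gained coding site. YTHDF1 and YTHDF3 had no gained or lost site. IGF2BP1 and IGF2BP3, readers that stabilise their targets, each had 1 site with shMETTL14 and none with NC. The lost reader site was on IGF2BP2, across the start codon, while its 3 sites at the 3' end were kept. Of the demethylases, FTO had 1 site with shMETTL14 and none with NC, and ALKBH5 had 2 sites with shMETTL14, both kept, and 3 with NC, of which 1 was lost. The coding site of ALKBH5 was kept at the same position with a fold enrichment of 46.0 with shMETTL14 and 31.3 with NC.

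Genes with the most sites under shMETTL14 and none under NC were taken by number of sites. VPS53, a subunit of tethering complexes in endosomal traffic, had 5 sites, all in the 3' UTR, with p-values between 2.40e-04 and 0.00295. UBN2, a partner of the histone chaperone HIRA, had 4 sites, and all 4 had a partner in both U2OS lists. ARID5B, a DNA-binding transcriptional regulator, had 4, with fold enrichments between 8.86 and 19.9, and each was present in at least 1 U2OS list. ZNF207, a spindle assembly factor, PPP1R9A, a scaffold that binds protein phosphatase 1, and FOXRED2, a protein of endoplasmic reticulum quality control, had 4 each. A further 6 genes, NOP9, SMIM11, EMILIN1, ZSWIM3, CITED2 and MANSC1, had 3 each. CITED2, a regulator that binds the coactivators CBP and p300, had all 3 in both U2OS lists, the strongest in its 3' UTR with a p-value of 2.34e-08. UBN2 and CITED2 thus had peaks at the same places in the other line with both hairpins.

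Genes with no site under shMETTL14 and the most under NC had fewer sites each. SGK223, a pseudokinase also called Pragmin, had 4, all coding, with p-values between 1.82e-05 and 0.00195. GAB1, an adaptor that links receptor tyrosine kinases to PI3K and SHP2, had 3, with fold enrichments of 27.4, 19.6 and 18.3. PLXNB2, a semaphorin receptor, MYLK, the myosin light chain kinase, and STON1, an endocytic adaptor whose sites are also listed under the readthrough gene STON1-GTF2A1L, had 3 each. RPL37A, a ribosomal protein, had 3, all labelled 3' UTR, with low p-values (2.00e-13 at most) and fold enrichments of only 1.21 to 1.25. VEPH1, ZMAT1, TMCC3, B3GALT1 and TMEM63B also had 3 each. Only 1 of the 3 GAB1 sites and none of the MYLK or RPL37A sites had a U2OS partner.

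**Figure D4:**
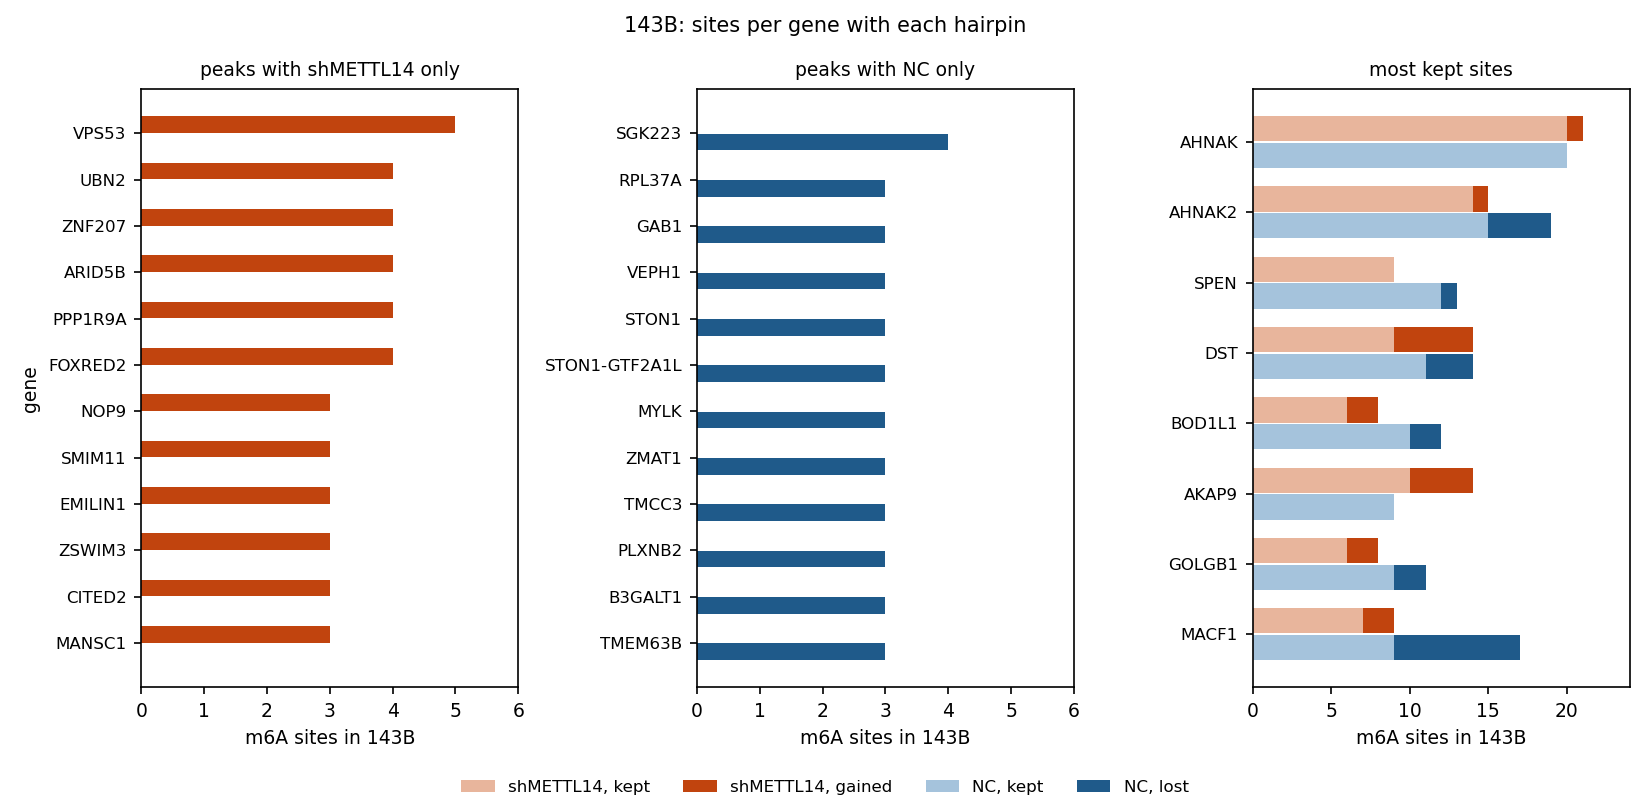
Number of m6A sites per gene in 143B (x axis) for the 12 genes with most sites under shMETTL14 and none under NC (left), the 12 with most under NC and none under shMETTL14 (middle) and the 8 with most kept sites (right). For each gene the upper bar counts shMETTL14 sites and the lower bar NC sites, split into kept and gained or lost; VPS53 reaches 5 gained sites and SGK223 4 lost ones, against 20 kept sites on AHNAK.

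The 8 genes with the most kept sites had gained or lost sites too, in some of them above the background share. AHNAK, a giant scaffold protein, had 21 sites with shMETTL14, of which 1 was gained, and 20 with NC, none of them lost. SPEN, a transcriptional corepressor of the Notch pathway, had 9 sites with shMETTL14, none gained, and 13 with NC, of which 1 was lost. DST, a cytoskeletal linker, had 5 of 14 shMETTL14 sites gained and 3 of 14 NC sites lost, and AKAP9, a scaffold of the centrosome and Golgi, had 4 of 14 gained and none of 9 lost. MACF1, a linker of actin and microtubules, had the most lost sites of these 8 genes, with 2 of 9 shMETTL14 sites gained and 8 of 17 NC sites lost. Some genes had at least 2 sites in each list and no overlap at all, and those with most sites included ELFN2, XPNPEP3, ZNF202, BTN3A1 and MYCBP2. XPNPEP3, a mitochondrial aminopeptidase, had 3 sites with shMETTL14 and 3 with NC in the same 3' UTR, with the shMETTL14 sites on either side of the NC sites, which lay between 41324003 and 41324601 on chromosome 22.

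The gained site with the lowest p-value was on GAPDH, the glycolytic enzyme, in the 3' UTR at 6647478 to 6647537 on chromosome 12. Its p-value was 3.16e-42 at a fold enrichment of 1.33, and it had no U2OS partner. CCND1, the cyclin that drives entry into S phase, had a gained 3' UTR site with a fold enrichment of 1.69 and a p-value of 2.00e-20. The other of its 2 shMETTL14 sites was kept, and of its 2 NC sites 1 was kept and 1 lost. SOCS5, a suppressor of cytokine signalling, had a gained coding site (chromosome 2, 46985962 to 46986320, fold enrichment 5.54) next to a kept one. TRAF3, an adaptor that restrains noncanonical NF-kappa-B signalling, had a gained coding site at a p-value of 1.58e-16 and a kept stop codon site. GATAD2B, a subunit of the NuRD complex, had a single site with shMETTL14, at a fold enrichment of 33.2 over exon junctions, and none with NC. CRCP, CCDC137, C12orf45, QTRTD1, KPNA6 and FABP5 were also among the 12 genes with the lowest p-values, and 7 of these 12 sites lay in the 3' UTR. Over all gained sites 1857 of 4120 lay there (45.1%), and 12 sites are too few to read a difference.

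The lost sites with the lowest p-values were also described, 1 for each of 12 genes. The lowest was on TRIM28, the corepressor of KRAB zinc finger proteins. TRIM28 had 1 shMETTL14 site, gained in the 3' UTR with a fold enrichment of 1.46. Its 1 NC site, lost, lay in coding sequence over exon junctions on chromosome 19 at 59056314 to 59057166 (fold enrichment 5.18, p-value 5.01e-30). NRP2, a semaphorin and VEGF coreceptor, had no site with shMETTL14, and with NC a lost site across its stop codon (p-value 6.31e-18) and another across its start codon (p-value 2.00e-16). PLAT, tissue plasminogen activator, had no site with shMETTL14 and 1 with NC, lost, across the stop codon (chromosome 8, 42032935 to 42033563, fold enrichment 2.78), although this place was present in both U2OS lists.

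Several of these 12 sites lay at the 5' end of the message. Those of UBQLN1, a ubiquitin-binding shuttle factor, DUSP1, a MAP kinase phosphatase, RNF10, KIF5B, a kinesin heavy chain, and MMP14, a membrane matrix metalloproteinase, all lay across the start codon. The DUSP1 start codon site (chromosome 5, 172197783 to 172198020) had a fold enrichment of 3.15 and a p-value of 2.00e-14, while a 3' UTR site of DUSP1 was kept. KIF5B had 2 kept coding sites and a lost start codon site, which was listed under both hairpins in U2OS. MAP4K4, a kinase upstream of JNK, had 5 kept NC sites and 1 lost site in the 5' UTR. MMP14 had 1 site with shMETTL14, kept, and 4 with NC, of which 3 were lost. The set was completed by RPL37A, RPS3A and EVC, a ciliary protein. Over all 3017 lost sites, 120 lay across the start codon (3.98%) and 191 within the 5' UTR (6.33%). The 12 sites were picked by their low p-values, and a difference from these shares was not tested.

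Gene groups are described by counts of sites, with the background of 32.0% gained and 24.6% lost. The largest group was that of C2H2 zinc finger genes named ZNF, many of which encode KRAB repressors. Of their sites, 249 of 602 were gained (41.4%, interval 37.4 to 45.4) and 121 of 495 were lost (24.4%, interval 20.7 to 28.5). Of 272 ZNF genes with shMETTL14 sites, 48 had none with NC, and of 236 with NC sites, 12 had none with shMETTL14. Over all genes these shares were 15.5% and 11.8%. ZNF462 had 6 of 10 shMETTL14 sites gained and 1 of 6 NC sites lost, while ZNF609 had 1 of 9 gained and 0 of 8 lost. The median p-value of ZNF sites was 3.98e-05 with shMETTL14 and 1.17e-04 with NC, weaker than the whole lists, and near-identical ZNF genes may share reads.

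Solute carriers, the membrane transporters, had 60 of 133 sites gained (45.1%, interval 36.5 to 54.0) and 38 of 113 lost (33.6%, interval 25.0 to 43.1). Of 93 carriers with shMETTL14 sites, 31 had none with NC (15.5% over all genes). Of 78 with NC sites, 16 had none with shMETTL14 (11.8% over all genes). SLC35F6 had 3 of 3 shMETTL14 sites gained and its 1 NC site lost. Tripartite motif genes, mostly ubiquitin ligases, were above background on both sides, with 24 of 51 sites gained (47.1%) and 22 of 49 lost (44.9%). TRIM38 had its 1 shMETTL14 site gained and all 3 NC sites lost, and TRIM32 had 3 of 3 gained and its 1 NC site lost.

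Among chromatin regulators, the remodellers and the histone acetylation and bromodomain genes had lost shares below the background. Of chromatin remodeller sites, 20 of 98 were gained (20.4%) and 8 of 99 were lost (8.08%, interval 3.55 to 15.3). CHD8, a helicase of that group, had 4 of 8 shMETTL14 sites gained and none of 4 NC sites lost, and ARID1B, a BAF complex subunit, had 4 of 10 gained and none of 8 lost. Of histone acetylation and bromodomain genes, 17 of 65 sites were gained (26.2%) and 5 of 56 were lost (8.93%). Histone methylation enzymes stayed near the background, with 32 of 90 gained (35.6%) and 24 of 88 lost (27.3%). Among them KMT2D had 5 of 13 gained and 1 of 9 lost, and KMT2C had 3 of 8 gained and 4 of 8 lost. Remodeller sites were strong, with a median p-value of 7.13e-11 with shMETTL14 and 1.58e-07 with NC.

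The translation machinery fell into groups of different kinds. Cytosolic ribosomal proteins had 9 of 60 sites gained (15%, interval 7.10 to 26.6) and 18 of 71 lost (25.4%, interval 15.8 to 37.1). Of their 41 genes with shMETTL14 sites, 2 had none with NC (15.5% over all genes). Of their 49 genes with NC sites, 10 had none with shMETTL14 (11.8% over all genes). Their sites had median p-values of 1.01e-33 with shMETTL14 and 3.16e-24 with NC. RPS3A had no site with shMETTL14 and 2 with NC, and RPL37 had 2 of 6 gained and none of 5 lost. Ribosomal protein genes have many near-identical copies that may share reads. Translation initiation factors had 15 of 68 gained (22.1%) and 6 of 64 lost (9.38%), and DEAD and DEAH helicases had 11 of 64 gained (17.2%) and 5 of 60 lost (8.33%).

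Signalling and cell fate groups were small, and their intervals were wide. Apoptosis genes of the BCL2 family and the mitochondrial pathway had 9 of 22 sites gained (40.9%, interval 20.7 to 63.6) and 0 of 14 lost (interval 0 to 23.2). BCL2, the founding survival factor, had 5 of 6 shMETTL14 sites gained and its 1 NC site kept, and APAF1, the scaffold of the apoptosome, had 2 sites with shMETTL14 and none with NC. The BCL2 sites that were gained had p-values between 2.75e-05 and 0.00200. FOXO and AMPK genes had 10 of 17 gained (58.8%, interval 32.9 to 81.6) and 2 of 10 lost, with 2 sites each on the AMPK catalytic subunits PRKAA1 and PRKAA2 under shMETTL14 and none under NC.

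Cholesterol and lipid synthesis genes had 10 of 20 sites gained (interval 27.2 to 72.8%) and 2 of 12 lost (16.7%). SREBF1, the master regulator of lipid synthesis, had a gained coding site with a p-value of 1.23e-09 and none with NC, and SCD, a fatty acid desaturase, had 2 of 3 gained and its 1 NC site kept. NF-kappa-B genes had 12 of 32 gained (37.5%) and 5 of 28 lost (17.9%). REL, a subunit of NF-kappa-B, had 7 sites with shMETTL14, all in the 3' UTR and 5 of them gained, and 2 with NC, both kept. Of nonsense-mediated decay genes, 9 of 26 sites were gained and 1 of 18 was lost, and the kinase SMG1 had 4 of 5 gained and its 1 NC site kept.

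For osteoblast and bone matrix genes the background lay within both intervals. They had 13 of 26 sites gained (interval 29.9 to 70.1%) and 6 of 18 lost (33.3%, interval 13.3 to 59). BMP4, a bone morphogenetic protein, had 3 sites with shMETTL14 and none with NC. VDR, the vitamin D receptor, had 3 shMETTL14 sites, all gained in the 3' UTR, and 1 NC site, lost, at 48238045 to 48238165 on chromosome 12, between the gained ones. The p-values of the BMP4 and VDR sites lay between 4.37e-04 and 0.00339, in the weaker part of the lists. BMP2, another bone morphogenetic protein, had 2 sites with each hairpin, all kept.

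In some groups, among them the 4 described next, the lost share was the larger one. In each of these 4 the intervals of gain and loss overlapped, so no order can be read. Circadian clock genes had 2 of 12 sites gained (16.7%, interval 2.09 to 48.4) and 8 of 19 lost (42.1%, interval 20.3 to 66.5). All 6 members with shMETTL14 sites also had NC sites, while 5 of the 11 with NC sites had none with shMETTL14. Over all genes 11.8% of those with NC peaks had none with shMETTL14, and 11 members are few. BHLHE41, a clock repressor, had no site with shMETTL14 and 2 lost sites with NC, and both places were present in both U2OS lists. Retinoic acid and nuclear receptor genes had 11 of 32 gained (34.4%, interval 18.6 to 53.2) and 17 of 37 lost (45.9%, interval 29.5 to 63.1). The corepressor NRIP1 had none of 3 shMETTL14 sites gained and 4 of 8 NC sites lost, and the coactivator NCOA3 had its 1 shMETTL14 site gained and all 3 NC sites lost.

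Adaptors of receptor tyrosine kinases had 5 of 25 sites gained (interval 6.83 to 40.7%) and 11 of 33 lost (33.3%, interval 18.0 to 51.8). Beside GAB1, the insulin receptor substrate IRS2 had 1 of 2 shMETTL14 sites gained and 3 of 4 NC sites lost. Semaphorins, plexins and ephrins, which guide axons and vessels, had 8 of 29 gained (27.6%, interval 12.7 to 47.2) and 15 of 35 lost (42.9%, interval 26.3 to 60.6), of which PLXNB2 gave 3 and NRP2 2. PI3K and mTOR genes had 11 of 31 gained (35.5%) and 13 of 36 lost (36.1%). The kinase AKT1 had no site with shMETTL14 and 3 lost sites with NC, with p-values between 1.48e-04 and 0.00195. Wnt pathway genes, with 11 of 48 gained and 11 of 50 lost, and DNA repair genes, with 11 of 56 gained and 9 of 57 lost, had intervals that include the background on both sides.

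**Figure D5:**
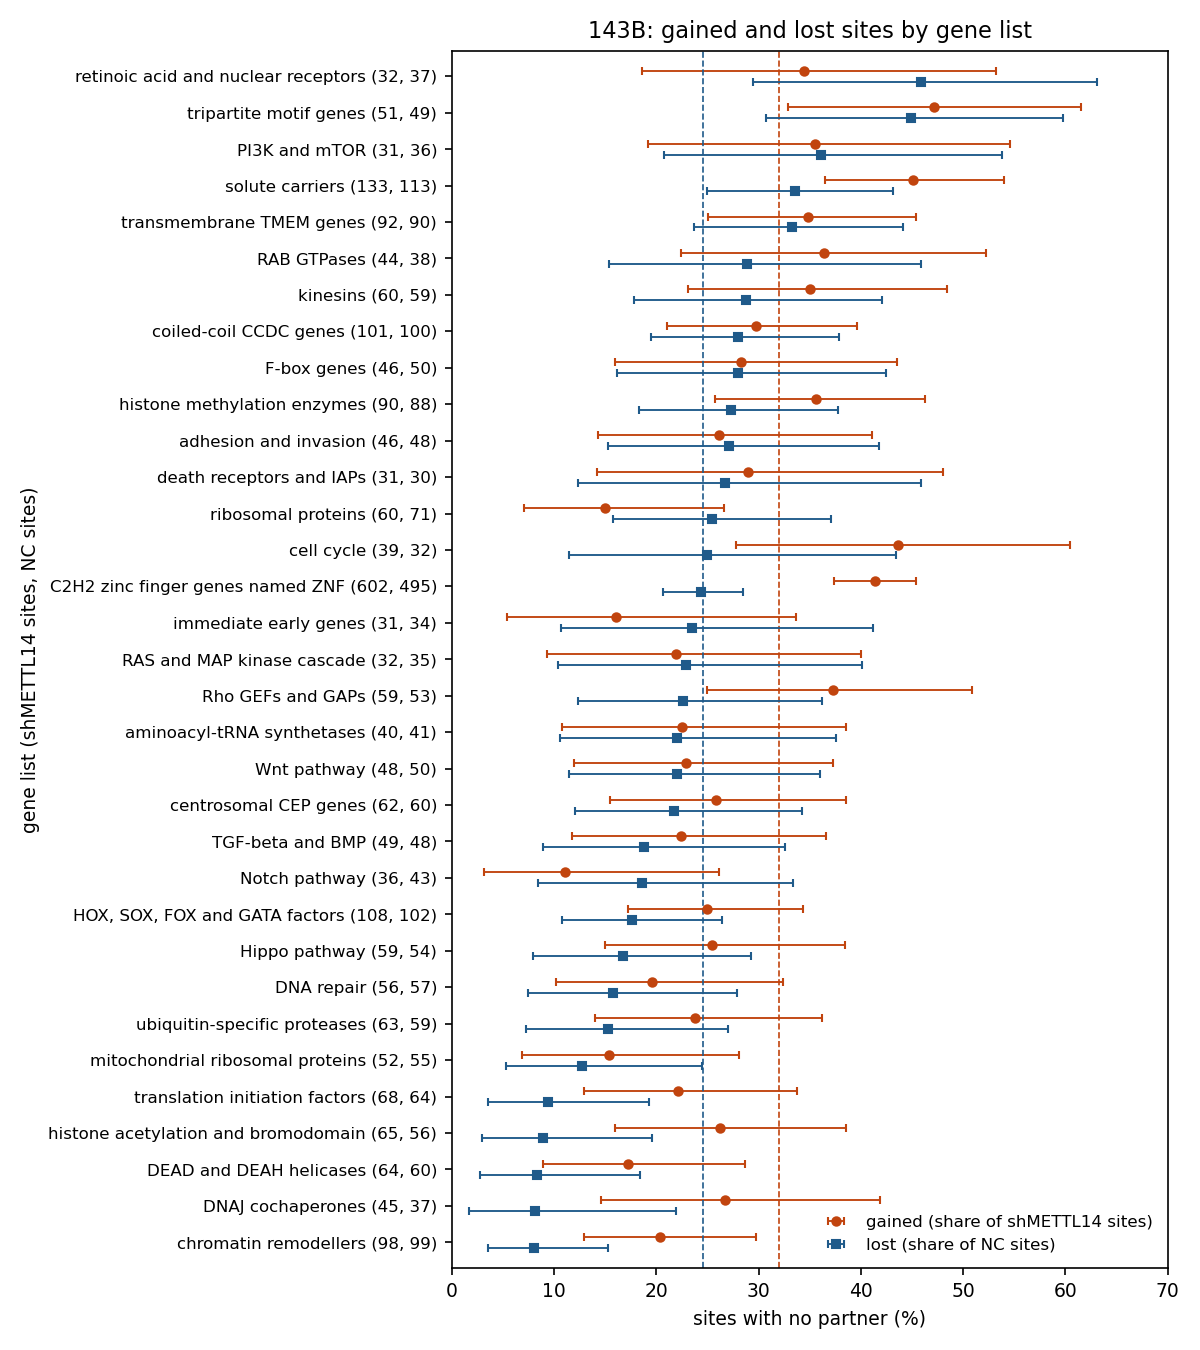
Share of 143B sites with no partner in the other list (x axis, percent) for each gene list with at least 30 sites under both hairpins, with the number of shMETTL14 and then NC sites in parentheses. Circles are gained and squares lost sites with 95% Clopper-Pearson intervals, and dashed lines the shares over all sites (32.0% gained, 24.6% lost); ZNF genes and solute carriers lie to the right of the gained line, and chromatin remodellers to the left of both.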

How the data were processed

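The submitters' processing notes name HISAT2, Trimmomatic and FastQC 0.11.5, and build hg19. How peaks were called, with which threshold, annotation and depth, is not given in the sources used here. A deposited list has 13 columns, among them a p-value and a fold enrichment (a linear ratio) made by the authors for each peak, per the file headers. Groups were taken from sample titles, and nothing in the labels says how many cultures stand behind a list. Coordinates are printed from 1.

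Peaks were compared by their spliced blocks on the same strand and joined to sites within a list. The members and the 62 gene lists (40 of symbols, 22 by name pattern) were chosen with earlier results of these data known. Genes named are the m6A machinery, up to 12 with sites under 1 hairpin only, the 12 gained and 12 lost sites with the lowest p-values, 6 genes with no overlap, 8 with most kept sites, and up to 4 gained or lost members and 1 kept member of a list, on chromosomes 1 to 22 and X. Some genes that this rule selects are not reported here. Alternatives changed the overlap, strand, peaks used and unit. The overlap code was run on simulated data, with whole sites removed, the rest shifted slightly, and added peaks placed where none could overlap. That run checks the code alone, and not the calls for weak or partly overlapping peaks. The tools were scipy 1.17.1, pandas 2.3.3, numpy 2.4.6 and matplotlib 3.10.9 under Python 3.11.15.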

Additional observations from a re-analysis of the deposited data

Results flagged for a closer look

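The number of peaks moved in opposite directions in the 2 lines, which is why it is listed here. The ratio, shMETTL14 over NC, was 1.06 in 143B (35195 over 33082 peaks) and 0.927 in U2OS (29992 over 32353 peaks). With 1 list per line and hairpin, the difference was not tested. In 143B the ratio grew to 1.46 at p-values of 1e-20 or below, where in U2OS it was 0.945.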

How the results depend on the processing

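The ratio of peak numbers stayed above 1 in every alternative that could change it, between 1.04 and 1.24, and gain exceeded loss in all of them. Against 27.3% of peaks gained and 20.7% lost, an overlap of 50% of the shorter peak gave 30.1% and 23.7%, 50% of each peak 43.1% and 39.5%, and a partner within 100 bp 24.7% and 17.9%. Peaks at or above the median fold enrichment gave 38.2% and 34.2%, those at or below the NC median p-value 27.7% and 12.2%, equal numbers by p-value 24.6% and 22%, and 1 transcript per gene 31.9% and 24.6%. Sites gave 32.0% and 24.6%, and genes 15.5% and 11.8%. An alternative chosen after seeing the data, peaks with p-values at or below 1e-05 against the whole other list, gave 9.36% and 4.31%. The stop codon had the lowest gained and lost share under every alternative, and the 5' UTR the highest lost share. For gain the 3' UTR was highest under 4 of them, for example 55.8% beside 51.9% in the 5' UTR above the median fold enrichment. Of the shares by region and gene list, 237 of 1280 moved, and of the site counts of named genes, 1227 of 6974. No paired analysis was possible because each group has 1 list. Read depth is unknown, so how far a weak site missing from a list lay from its threshold cannot be told.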

Other observations

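Other gene groups showed further mixtures of gain and loss, against 32.0% of all sites gained and 24.6% lost. Cell cycle genes had 17 of 39 sites gained (43.6%, interval 27.8 to 60.4) and 8 of 32 lost (25.0%). Of 24 members with shMETTL14 sites, 7 had none with NC (15.5% over all genes). Of 20 with NC sites, 3 had none with shMETTL14 (11.8% over all genes). E2F2, a transcription factor of S phase entry, had 2 sites with shMETTL14 and none with NC. MAP kinase feedback genes had 11 of 23 gained (47.8%) and 6 of 18 lost (33.3%). The phosphatases DUSP16 and DUSP4 had 3 and 2 sites with shMETTL14 and none with NC, while DUSP1 had none of its 1 shMETTL14 site gained and 2 of 3 NC sites lost. Hedgehog genes were split evenly, with 7 of 12 gained and 7 of 12 lost, and the transcription factor GLI2 had 3 of 4 on each side. MDM4, an inhibitor of p53, had 3 of 8 shMETTL14 sites gained and 4 of 9 NC sites lost, with its stop codon site kept.

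Notch genes had 4 of 36 sites gained (11.1%, interval 3.11 to 26.1) and 8 of 43 lost (18.6%), and the Notch target HEY2 had none with shMETTL14 and 2, both lost, with NC. Hippo and TGF-beta intervals for gain include the background. Hippo genes had 15 of 59 gained (25.4%) and 9 of 54 lost (16.7%), and the atypical cadherin FAT1 had 4 of 11 gained and none of 7 lost. TGF-beta and BMP genes had 11 of 49 gained (22.4%) and 9 of 48 lost (18.8%).

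By chromosome, the gained share ran between 26.9% on chromosome 20 and 37.8% on chromosome 19, which also carries many ZNF genes, and the lost share between 21.4% on chromosome 17 and 31.0% on chromosome 22. The number of sites a gene had made little difference, with 30.6% gained and 25.8% lost on genes with 1 site, and 32.2% gained and 23% lost on genes with 6 or more. A peak of the other strand overlapped 310 of 12886 shMETTL14 sites and 275 of 12258 NC sites.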
